A study of Mus musculus with 3 samples.

Results

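The sortilin family of sorting receptors was followed through the hippocampal nuclei of adult mice that carry 1 copy of the D allele of the sodium channel gene Scn8a. Its 5 members, Sorcs1, Sorcs2, Sorcs3, Sort1 and Sorl1, were taken by symbol from the 32285 genes counted. The family was selected on values measured in these libraries. Which values is not stated, and Sorcs3, for which the choice was named, is taken here as their source, so every value of Sorcs3 is a description and carries no test.

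Proteins of this family cross the membrane once and carry a Vps10p domain, which binds ligands in the secretory and endocytic pathways and hands them to the trans-Golgi network, to endosomes or to lysosomes. Sortilin, made from Sort1, binds progranulin, neurotensin and proneurotrophins and pairs with the neurotrophin receptor p75. SorLA, made from Sorl1, returns the amyloid precursor protein from endosomes through the retromer coat. SorCS1, SorCS2 and SorCS3 are neuronal relatives known for the trafficking of synaptic receptors; SorCS2 also binds proBDNF, and SorCS3 acts at the postsynaptic density of hippocampal neurons.

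All 3 libraries formed a single group: hippocampus of adult female Scn8aD/+ mice labelled post-onset, 1 mouse to each of batches 1, 2 and 3. Nuclei were stained with propidium iodide, sorted and counted by a droplet 3' method that counts transcripts by unique molecular identifiers (UMIs). No control animals were analysed here, so classes of nuclei were compared within mice; a difference between mice cannot be told apart from a difference between batches. The labels give no age beyond adult, and hold no statement on whether the mice shared a litter.

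After filtering, 7890 nuclei of mouse 1, 11816 of mouse 2 and 4401 of mouse 3 remained, with median depths per barcode of 8859, 1711 and 25775 UMIs before filtering. Libraries stood apart: in 38 of 57 clusters 1 mouse supplied 80% of the nuclei or more, and 10413 nuclei fell in 18 clusters that mouse 2 had nearly to itself. Glutamatergic markers in glia-like nuclei of mouse 2 reached 65.2% of their level in its neuron-like nuclei, against 25.4% in mouse 1 and 24.6% in mouse 3. The mice shared between 13 and 36 barcodes by pair. The CA1-like nuclei of mouse 3 were nearly all in 1 cluster of 373 nuclei, whose 10 leading genes held an astrocyte marker, Gpc5, and no CA1 marker. Gpc5 was not particular to it. The CA1-like clusters with 680 and 318 nuclei of mouse 1 also held Gpc5 among their leading genes, each beside 1 CA1 marker. A CA1-like cluster with 691 nuclei of mouse 2 held no CA1 marker among its leading genes either. Of 9 CA3 markers, 3 in mouse 3 and 6 in each of mice 1 and 2 were at least 2 times higher in the CA3-like class than in the mouse's other classes, and 0 were undetected. For 10 granule markers these counts were 8 in mouse 3, 7 in mouse 2 and 8 in mouse 1, and for 9 CA1 markers 5, 7 and 7.

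Sorcs3 and Sorcs1 both lie on chromosome 19. In mm10, Sorcs3 (ENSMUSG00000063434) spans positions 48206025 to 48805505 on the plus strand and Sorcs1 (ENSMUSG00000043531) spans 50143299 to 50678646 on the minus strand, with a gap of 1338 kb that holds 9 annotated genes. Sorcs2 (ENSMUSG00000029093) lies on chromosome 5 from 36017180 to 36398139, Sort1 (ENSMUSG00000068747) on chromosome 3 from 108284082 to 108361511, and Sorl1 (ENSMUSG00000049313) on chromosome 9 from 41964720 to 42124297. Their spans were 535 kb for Sorcs1, 381 kb for Sorcs2, 599 kb for Sorcs3, 77.4 kb for Sort1 and 160 kb for Sorl1. Annotated genes overlap Sort1, Sorl1, Sorcs1 and Sorcs2 on one strand or the other, and the sources used here do not say whether counting used strand.

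The 250 bases upstream of an annotated start are shown (RefSeq, GRCm38.p6, read 5′ to 3′ on the gene's strand). Sorcs3 and Sorcs1 are given as the members on chromosome 19, with levels across classes set side by side below. The start of Sorl1 at the end of its annotated span is given as that of the member called in neurons against glia. Capitals mark letters of a searched motif.
Sorcs3 (chr19:48205775-48206024, plus strand): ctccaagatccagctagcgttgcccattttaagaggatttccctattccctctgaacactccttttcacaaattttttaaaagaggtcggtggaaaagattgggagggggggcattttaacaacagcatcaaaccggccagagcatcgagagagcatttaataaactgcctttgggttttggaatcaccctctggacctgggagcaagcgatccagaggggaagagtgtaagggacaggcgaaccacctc
Sorcs1 (chr19:50678647-50678896, minus strand): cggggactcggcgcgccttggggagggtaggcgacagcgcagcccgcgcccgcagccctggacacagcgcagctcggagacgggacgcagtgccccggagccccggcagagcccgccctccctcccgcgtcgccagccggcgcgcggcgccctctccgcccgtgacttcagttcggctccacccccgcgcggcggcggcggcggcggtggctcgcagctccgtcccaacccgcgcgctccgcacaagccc
Sorl1 (chr9:42124298-42124547, minus strand): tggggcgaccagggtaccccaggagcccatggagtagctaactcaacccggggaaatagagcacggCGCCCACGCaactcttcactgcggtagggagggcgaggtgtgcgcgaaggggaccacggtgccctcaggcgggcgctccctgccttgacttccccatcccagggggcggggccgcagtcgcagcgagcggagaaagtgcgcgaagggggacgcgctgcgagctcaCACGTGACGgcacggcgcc
Both strands were searched for the cAMP response element TGACGTCA, held by 1.55% of 32851 promoter windows of this length, its core TGACG (17.8%), the AP-1 sites TGACTCA and TGAGTCA (4.46%), the E-box CACGTG (6.02%) and the Egr sites GCGTGGGCG and GCGGGGGCG (3.06%). The Sorcs3 and Sorcs1 windows held none of these letters. The Sorl1 window shown held an Egr match that began 184 bases before the start, and an E-box 19 bases before it that overlapped such a core 15 bases before it. The Sorcs3 window was 48.4% G or C, the Sorcs1 window 79.6% and the Sorl1 window shown 69.6%. A second Sorl1 entry, at positions 42077214 to 42077463 of chromosome 9, held none of the motifs and was 47.2% G or C. Sorcs2 and Sort1 had no entry.

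Levels are given as CPM, the UMIs of a gene scaled to the summed UMIs of its class in that mouse. By mean over mice Sorcs3 was highest in granule-like and CA1-like nuclei, but the order of classes differed between mice. In granule-like nuclei its level was 4153 CPM in mouse 3, 718 CPM in mouse 2 and 284 CPM in mouse 1, with exact Poisson 95% intervals of 4132 to 4174, 695 to 742 and 277 to 292 CPM that cover counting error only. The value of mouse 3 was 14.6 times that of mouse 1 (95% interval 14.2 to 15.0) and 5.79 times that of mouse 2 (5.60 to 5.98). These nuclei held 151104 Sorcs3 UMIs in mouse 3, 3633 in mouse 2 and 5761 in mouse 1.

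In CA1-like nuclei Sorcs3 stood at 2878 CPM in mouse 3, 1453 CPM in mouse 2 and 756 CPM in mouse 1. In CA3-like nuclei it stood at 1983 CPM in mouse 3, 472 CPM in mouse 2 and 136 CPM in mouse 1. Mouse 3 was highest and mouse 1 lowest in these 3 classes. Granule-like nuclei exceeded CA1-like nuclei in mouse 3 and fell below them in mice 1 and 2.

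Outside the principal neurons, oligodendrocyte precursor (OPC)-like nuclei had 1264 CPM of Sorcs3 in mouse 3, 589 CPM in mouse 2 and 574 CPM in mouse 1, and the inhibitory nuclei of no named subtype 1362, 719 and 777 CPM. In mouse 1 inhibitory nuclei of no named subtype were above CA1-like nuclei, and OPC-like nuclei were above granule-like and CA3-like nuclei. Pvalb-like nuclei, named for markers of fast-spiking interneurons, had 235 CPM in mouse 3, 317 CPM in mouse 2 and 45.9 CPM in mouse 1. Sst-like nuclei had 415, 201 and 114 CPM. These 2 names are uncertain. Of 7 Sst markers, only 3 were at least 2 times higher in the Sst-like class of each mouse, and 1 or 2 were undetected. In mouse 2, 587 of 609 Pvalb-like nuclei lay in a cluster where 3 Sst markers were raised beside 5 Pvalb markers, and only 34 nuclei were Sst-like. Among glia, oligodendrocyte-like nuclei had 412 CPM in mouse 3, 377 CPM in mouse 2 and 106 CPM in mouse 1, and microglia-like nuclei 368, 507 and 69.9 CPM. The mouse 2 values depended on cluster. Its own shallow clusters had 494 CPM (oligodendrocyte-like), 591 and 525 CPM (microglia-like) and 371 CPM (Pvalb-like). In clusters shared with other mice, its nuclei of these classes had between 108 and 145 CPM, 97.0 CPM and 78.5 CPM. CA2-like nuclei, counted only in mouse 1 because the others had under 20, held 11 UMIs, or 8.86 CPM (Poisson 95% interval 4.42 to 15.9).

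**Figure D1:**
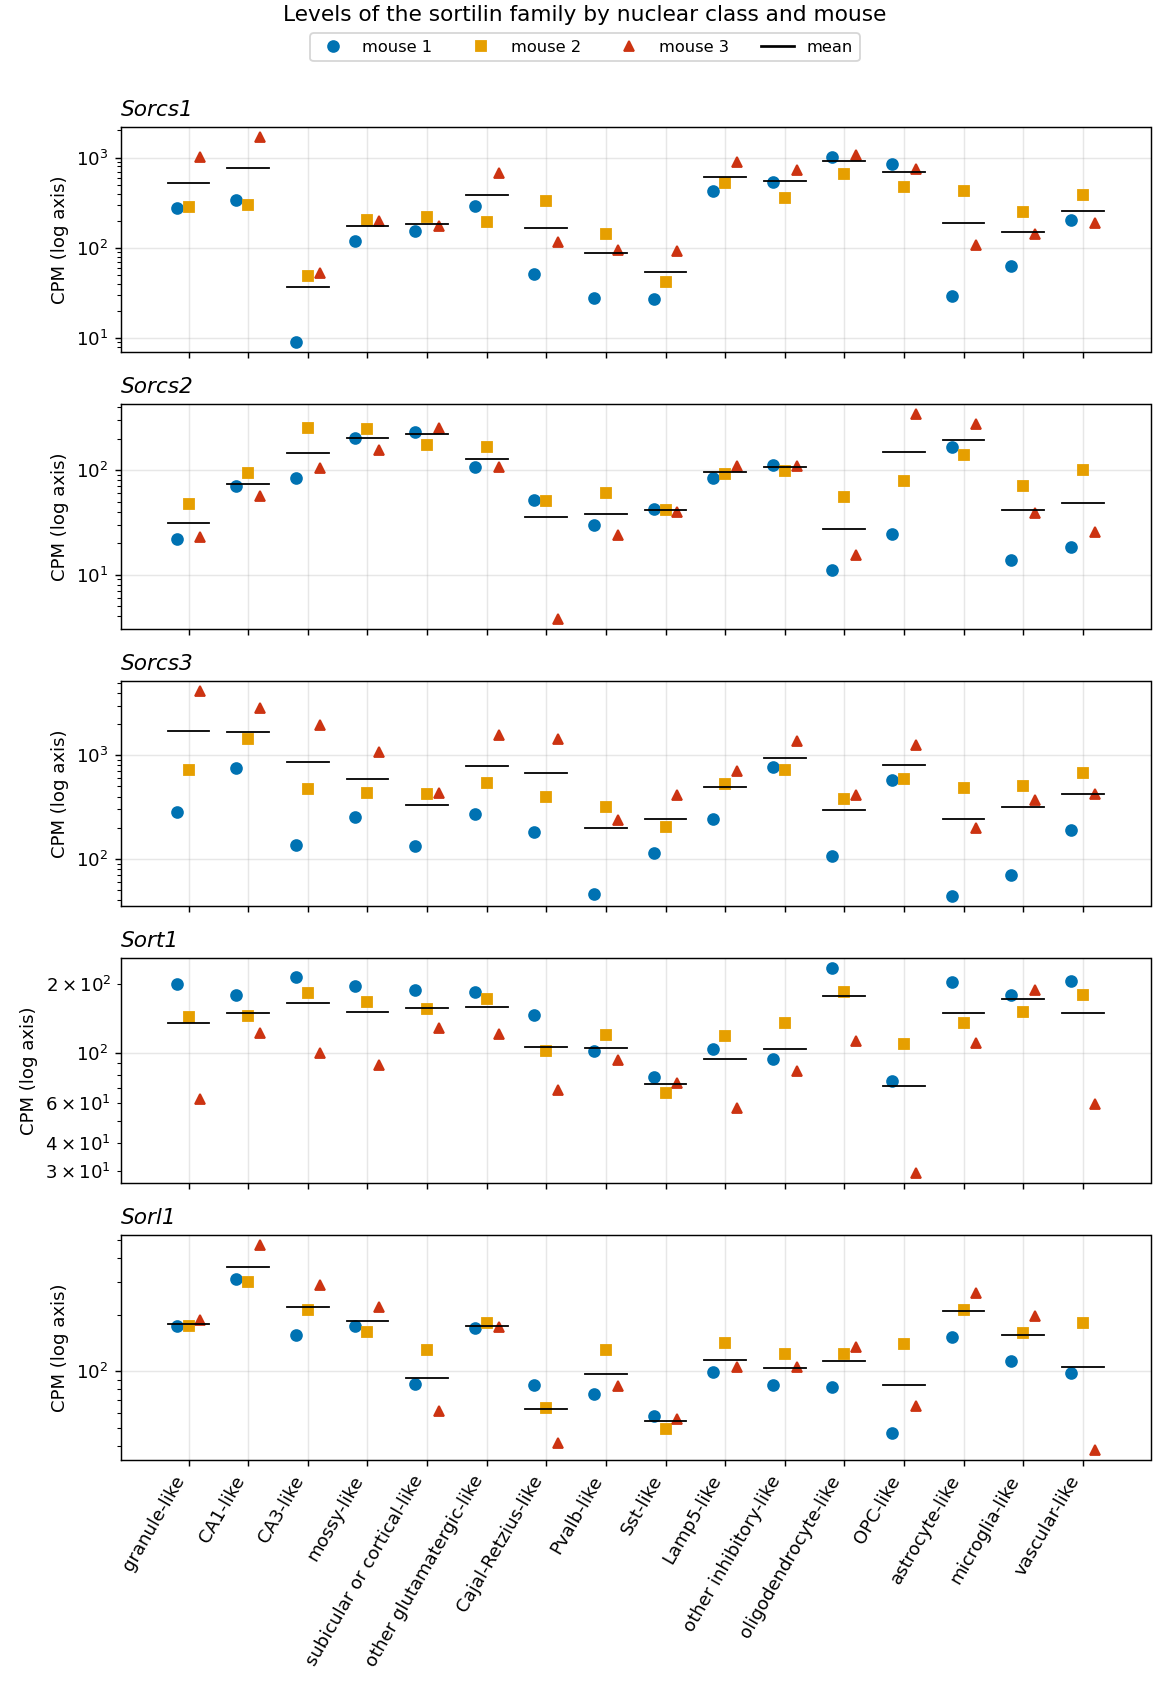
CPM (log axis) of each member in 16 marker-named classes, 1 point per mouse and a line at the mean of the mice. Sorcs3 in granule-like nuclei runs between 284 and 4153 CPM, while Sorl1 there stays between 174 and 188 CPM.

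By mean over mice, granule-like (1719 ± 2120 CPM, SD, n = 3) and CA1-like (1696 ± 1081 CPM, n = 3) led the order of the 16 classes, and Pvalb-like was last (199 ± 139 CPM, n = 3). None of the 15 pairs of neighbours in that order differed by more than the larger of their SDs. After each nucleus was thinned to 1000 UMIs, 95.7% of granule-like nuclei of mouse 3 held a Sorcs3 UMI, 47.5% of mouse 2 and 20.9% of mouse 1; unthinned shares were 100%, 72.3% and 76.9%. In microglia-like nuclei, a class in which free neuronal RNA could be read, the thinned shares were 30.3%, 37.5% and 6.26%. Thinning left out 119 granule-like nuclei of mouse 2, 3 of mouse 1 and 0 of mouse 3.

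Sorcs3 was higher in mouse 3 than in mouse 1 in all 16 classes, with ratios between 1.75 and 14.6 and a median of 4.07. Against mouse 2 it was higher in 12 of 16, the Pvalb-, astrocyte-, microglia- and vascular-like classes excepted, with a median ratio of 1.94. Sort1, the shortest member, ran the other way: it was lower in mouse 3 than in mouse 1 in 15 of 16 classes, with a median ratio of 0.542. Against mouse 2 it was lower in 14 of 16, with a median ratio of 0.642. Sorcs1 was higher in mouse 3 than in mouse 1 in 14 of 16 classes (median ratio 2.25) and higher than in mouse 2 in 9 (1.33). For Sorl1 these counts were 12 (1.18) and 8 (1.01), and for Sorcs2 10 (1.07) and 5 (0.618).

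**Figure D2:**
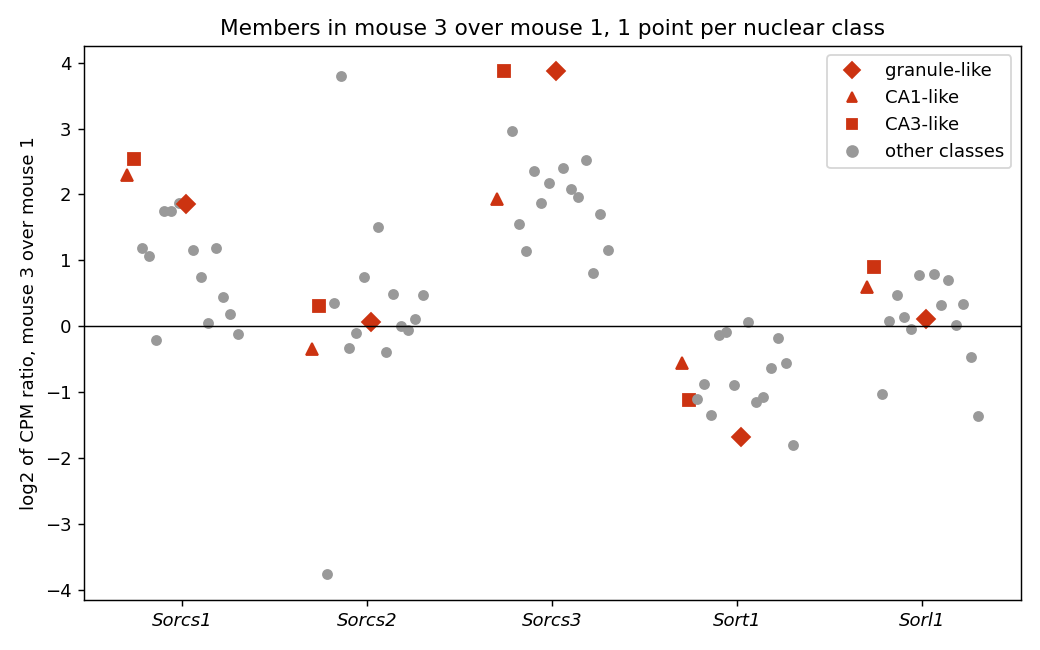
Log2 of the CPM ratio of mouse 3 over mouse 1, with 1 point per class and the granule-, CA1- and CA3-like classes in red. Sorcs3 points all lie above 0, and 15 of 16 Sort1 points lie below it.

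Values of other genes of like span are given beside these ratios as a description. Over 89 genes of 500 to 700 kb span that averaged at least 20 CPM in granule-like nuclei, the median ratio of mouse 3 over mouse 1 was 1.03, with a 5th and 95th percentile of 0.595 and 3.91; over mouse 2 the median was 0.980, with 0.399 and 3.21. Sorcs1 in granule-like nuclei stood at 3.61 times mouse 1 and 3.58 times mouse 2. In CA1-like nuclei Sorcs1 in mouse 3 stood at 4.91 times mouse 1 and 5.54 times mouse 2. The 95th percentiles of genes of 500 to 700 kb in that class were 2.12 and 1.94. In CA3-like nuclei Sorcs1 in mouse 3 stood at 5.80 times mouse 1 and 1.08 times mouse 2, beside 95th percentiles of 2.23 and 2.11. The median ratio of mouse 3 over mouse 1 for 3071 granule-expressed genes under 50 kb was 0.730. For 1338 such genes of 50 to 100 kb, the bin of Sort1, it was 0.828, with a 5th and 95th percentile of 0.319 and 1.90. Sort1 stood at 0.311. Over mouse 2 the median of that bin was 0.838 and its 5th percentile 0.399, with Sort1 at 0.433. The place of Sort1 in its bin differed between classes. Over mouse 1 it was below the 5th percentile in oligodendrocyte-like (0.477, 5th percentile 0.535) and OPC-like nuclei (0.395, 0.539). It was above that percentile in CA1-like (0.681, 0.400), CA3-like (0.463, 0.403) and microglia-like nuclei (1.05, 0.558). The part of depth, batch or RNA handling in these ratios was not tested.

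Granule-like nuclei of mouse 3 lay in clusters of their own, so values by cluster cannot separate cluster from mouse there. The granule-like clusters had 4675 and 3253 CPM of Sorcs3 in mouse 3, between 574 and 853 CPM in mouse 2, and between 234 and 323 CPM in mouse 1. The brain-derived neurotrophic factor gene Bdnf, whose protein is an activity-dependent ligand, stood at 1608 and 1225 CPM in the same 2 clusters of mouse 3, between 372 and 676 CPM in those of mouse 2, and between 647 and 786 CPM in those of mouse 1. Nr4a1, also an activity-dependent gene, was instead highest in mouse 1. It stood at 149 and 192 CPM in mouse 3, between 31.5 and 69.5 CPM in mouse 2, and between 356 and 470 CPM in mouse 1. A part of activity in these levels was not tested. CA3-like nuclei divided: 1 cluster found in all 3 mice, led in part by Calcrl, which also marks mossy cells, had 457 CPM of Sorcs3 in mouse 3, 201 CPM in mouse 2 and 152 CPM in mouse 1. The other CA3-like cluster of mouse 3 had 2282 CPM.

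**Figure D3:**
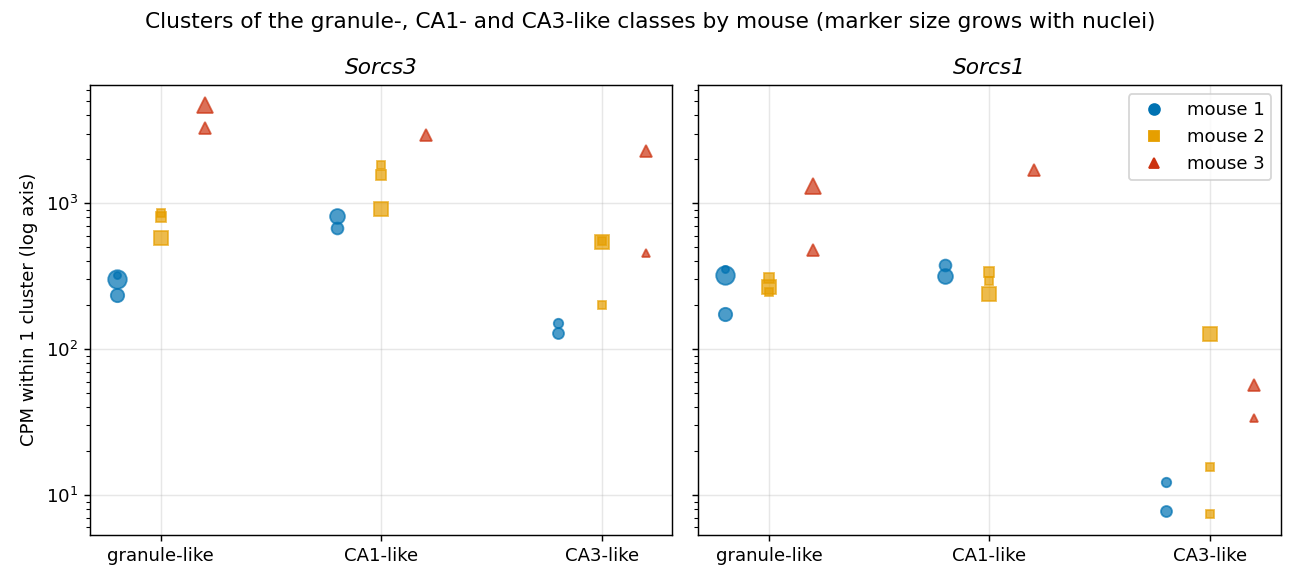
CPM (log axis) of Sorcs3 and Sorcs1 in each cluster of at least 20 nuclei of a mouse. The mouse 3 granule-like clusters (4675 and 3253 CPM of Sorcs3) lie above those of the other mice. Among CA3-like clusters the highest Sorcs1 value is 127.4 CPM, in a cluster of mouse 2's own, beside 7.40 and 15.6 CPM in that mouse's shared ones.

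Sorcs1, the paralog on the same chromosome as Sorcs3, separated CA3-like from CA1-like nuclei. It had 53.1 CPM in mouse 3, 49.4 CPM in mouse 2 and 9.16 CPM in mouse 1 in CA3-like nuclei, against 1675, 302 and 341 CPM in CA1-like nuclei of the same mice. Sorcs1 fell by 4.33 ± 0.50 on the log2 scale (SE, 3 mice, edgeR's quasi-likelihood test with mouse as a block, Benjamini-Hochberg adjusted p = 0.00152), lower in 3 of 3 mice. It was the member called of 4 tested, where calls were limited to adjusted p-values below 0.05 with a difference of 1 or more on the log2 scale; 10.2% of all genes tested were called, 6.2% higher and 4.02% lower. Without mouse as a block the fold change was -4.52 and the call was lost (adjusted p = 0.0875).

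Sorl1 was 0.75 ± 0.11 lower on the log2 scale in CA3-like than in CA1-like nuclei (218 ± 66.9 CPM against 358 ± 94.4 CPM, SD, n = 3; edgeR adjusted p = 0.00452) and Sorcs2 0.84 ± 0.21 higher (147 ± 93.0 against 73.5 ± 18.5 CPM; adjusted p = 0.0298); both missed the fold minimum. Sort1, at 166 ± 59.5 and 149 ± 28.7 CPM, missed the adjusted threshold (edgeR adjusted p = 0.732). Sorcs3 was lower in CA3-like nuclei in 3 of 3 mice. Without mouse 1 Sorcs2 passed both limits (1.13, edgeR adjusted p = 0.00345). Leaving out the main CA1-like cluster of mouse 3, which removed that mouse from the comparison, gave Sorcs1 -3.88.

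Sorcs2, the proBDNF receptor, was low in granule-like nuclei. It had 23.1 CPM in mouse 3, 47.8 CPM in mouse 2 and 22.0 CPM in mouse 1, against 82.6, 162 and 80.3 CPM in CA pyramidal-like nuclei. It was lower by 1.77 ± 0.12 on the log2 scale (SE, edgeR adjusted p = 0.00106) and lower in 3 of 3 mice, the call among 4 members tested beside 17.2% of all genes, 6.46% called higher and 10.7% lower. Sorl1 had 179 ± 7.43 CPM in granule-like and 298 ± 62.8 CPM in CA pyramidal-like nuclei (log2 fold change -0.67, edgeR adjusted p = 0.0176), under the fold minimum.

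Sorcs1 in the same comparison had 521 ± 419 CPM in granule-like and 407 ± 340 CPM in CA pyramidal-like nuclei (SD, n = 3; log2 fold change 0.43, edgeR adjusted p = 0.0543), and Sort1 136 ± 69.5 and 153 ± 40.6 CPM (edgeR adjusted p = 0.392). Sorcs2 was highest by mean in nuclei of the subicular or cortical glutamatergic-like class (220 ± 41.3 CPM) and in mossy-like nuclei (201 ± 45.4 CPM). CA2-like nuclei of mouse 1 held 183 CPM. Of 15 neighbour pairs in the Sorcs2 order, 1 differed by more than the larger SD.

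Sorl1 was lower in inhibitory-like nuclei. It had 84.2 CPM in mouse 3, 126 CPM in mouse 2 and 76.8 CPM in mouse 1 of inhibitory-like nuclei, against 236, 204 and 204 CPM in glutamatergic-like nuclei. It was lower by 1.32 ± 0.19 on the log2 scale (SE, edgeR adjusted p = 0.0116) in 3 of 3 mice, 1 of 4 members called, beside 14.6% of all genes, 7.63% called higher and 6.96% lower. Sort1 (log2 fold change -0.70, edgeR adjusted p = 0.0377) and Sorcs2 (-0.58, adjusted p = 0.0444) passed the adjusted threshold below the fold minimum. Without mouse 1 the Sorl1 call was lost (edgeR adjusted p = 0.063).

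In neuron-like nuclei Sorl1 had 222 CPM in mouse 3, 186 CPM in mouse 2 and 189 CPM in mouse 1, against 154, 146 and 85.2 CPM in glia-like nuclei, and neuron-like nuclei were higher in 3 of 3 mice. This did not hold for every class: inhibitory-like nuclei (84.2, 126 and 76.8 CPM) were below glia-like nuclei in each mouse. Astrocyte-like nuclei averaged 208 CPM, against 199 CPM for all neuron-like nuclei. The fitted difference was 1.05 ± 0.25 on the log2 scale (edgeR adjusted p = 0.0431), the call among 4 members, beside 23.4% of all genes, 8.98% called higher and 14.4% lower. It passed both limits narrowly: without mouse 1 the adjusted p was 0.264, without mouse 3 it was 0.178, with thinned nuclei 0.0799, without mouse as a block 0.0611 and without composition scaling 0.0791. Scaling by trimmed means moved the median log2 fold change of all genes by over 0.1 in this comparison, to 0.03 against -0.34 with library sizes alone. Of the genes called, 38.4% were higher in neuron-like nuclei with that scaling and 22.9% without it. Sort1 there stood at 0.24 with that scaling and at -0.13 without it, and was lower in neuron-like nuclei in 3 of 3 mice by CPM. Other comparisons depended on scaling too. In inhibitory-like against glutamatergic-like nuclei that median was -0.0067 with it and 0.113 without, and 52.3% and 60.7% of calls were higher. In microglia-like against oligodendrocyte-like nuclei the medians were -0.0494 and 0.236, and the shares 61.0% and 65.0%.

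Among glia, Sort1 was lower in OPC-like nuclei, at 29.5 CPM in mouse 3, 109 CPM in mouse 2 and 74.8 CPM in mouse 1, against 112, 186 and 235 CPM in oligodendrocyte-like nuclei. It was lower by 1.46 ± 0.28 on the log2 scale (SE, edgeR adjusted p = 0.0219) in 3 of 3 mice, 1 of 4 members called, beside 17.4% of all genes, 9.46% called higher and 7.93% lower; leaving out mouse 1 or mouse 3 gave adjusted p of 0.147 and 0.148. Sorcs2 in OPC-like nuclei was uneven, with 342 CPM in mouse 3, 78.8 CPM in mouse 2 and 24.6 CPM in mouse 1, against 15.6, 55.9 and 11.1 CPM in oligodendrocyte-like nuclei. Its log2 fold change of 2.00 missed the threshold (edgeR adjusted p = 0.156), and became 3.02 (adjusted p = 0.000855) when nuclei in mouse 2's own clusters were left out and 3.00 (adjusted p = 0.0324) without mouse 2. Without mouse as a block the Sort1 call was lost too (edgeR adjusted p = 0.0883).

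Sorcs1 was lower in microglia-like than in oligodendrocyte-like nuclei, at 141 CPM in mouse 3, 251 CPM in mouse 2 and 63.4 CPM in mouse 1, against 1062, 656 and 1026 CPM. The fall was 3.07 ± 0.68 on the log2 scale (SE, edgeR adjusted p = 0.0479), 1 of 4 members called, beside 15.1% of all genes, 9.23% called higher and 5.89% lower. Leaving out mouse 1 gave an edgeR adjusted p of 0.220 and leaving out mouse 3 gave 0.236. The microglia-like value of mouse 2, the highest, came with glutamatergic markers at 72.4% of their neuronal level in those nuclei, against 53.0% in mouse 3 and 44.1% in mouse 1. The part of free RNA in these values was not tested. Oligodendrocyte-like nuclei led the Sorcs1 order (915 ± 225 CPM, n = 3), and none of its 15 neighbour pairs differed by more than the larger SD.

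**Figure D4:**
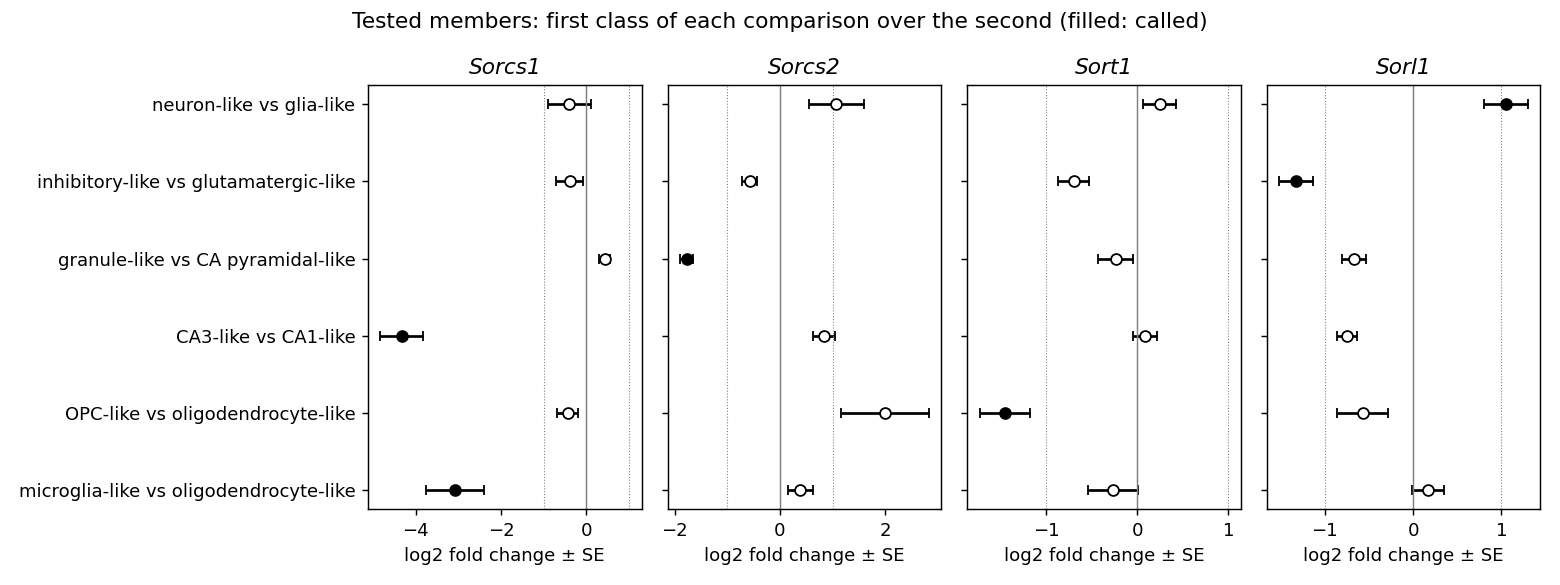
Log2 fold change ± SE of the 4 tested members in 6 comparisons of classes, the first-named class over the second, from 3 mice; filled points were called. Sorcs1 in CA3-like over CA1-like nuclei, at -4.33, is the lowest point.

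Per 100 kb of gene span, CA1-like nuclei averaged 283 CPM of Sorcs3, 225 CPM of Sorl1, 192 CPM of Sort1, 144 CPM of Sorcs1 and 19.3 CPM of Sorcs2. In oligodendrocyte-like nuclei the same scale gave 230 CPM of Sort1, 171 CPM of Sorcs1, 71.2 CPM of Sorl1, 49.8 CPM of Sorcs3 and 7.23 CPM of Sorcs2. Without it the order differed, with 915 ± 225 CPM of Sorcs1 and 178 ± 62.0 CPM of Sort1 in these nuclei (SD, n = 3). Whether counts grew with span was not tested, so the order of members depends on the scale chosen. Sorl1 had 1 neighbour pair of 15, CA1-like (358 CPM) over CA3-like (218 CPM), that differed by more than the larger SD. No Sort1 neighbour pair did.

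Genes of the same pathway were taken from a list of 55 ligands, cargoes, coat proteins and proteases. In neuron-like against glia-like nuclei 5 of 50 tested were called higher and 4 lower, against 8.98% of all genes higher and 14.4% lower, with a median log2 fold change of 0.19 over the list and 0.03 over all genes. Neuron-like nuclei were higher in the neurotrophin receptor gene Ntrk3 (956 against 419 CPM, log2 fold change 1.67, edgeR adjusted p = 0.0486) and the convertase gene Pcsk5 (289 against 117 CPM, 2.03, adjusted p = 0.0487). They were lower in Apoe, a lipid carrier (12.1 against 185 CPM, -3.54, adjusted p = 0.0199), in Clu (-2.06) and in Grn, which encodes the sortilin ligand progranulin (5.93 against 25.5 CPM, -1.86). Without mouse 1 or without mouse 3, 0 partner genes were called here, in OPC-like over oligodendrocyte-like nuclei and in microglia-like over oligodendrocyte-like nuclei.

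Between granule-like and CA pyramidal-like nuclei 4 of 49 partner genes were higher and 6 lower, against 6.46% of all genes higher and 10.7% lower (list median log2 fold change 0.07, all genes 0.04). Bdnf was higher in granule-like nuclei (923 against 335 CPM, log2 fold change 1.89, edgeR adjusted p = 0.00579), as were Gfra1, a co-receptor for GDNF (189 against 30.3 CPM, 2.41), and Pcsk5 (531 against 168 CPM, 1.96). Ntsr2, a neurotensin receptor gene, was lower (3.67 against 24.0 CPM, -2.81), and so was the potassium channel gene Kcnk2, whose protein sortilin sorts (13.9 against 42.4 CPM, -1.90). Without mouse as a block the calls of Bdnf (edgeR adjusted p = 0.422), Pcsk5 (0.138) and Kcnk2 (0.144) were lost. The Pcsk5 call was also lost without the main CA1-like cluster of mouse 3. In inhibitory-like against glutamatergic-like nuclei 1 of 50 was higher and 4 were lower, against 7.63% of all genes higher and 6.96% lower. Bdnf was among the lower ones (70.9 against 476 CPM, -2.84), a call lost without mouse 1, without mouse 3 or without mouse as a block (edgeR adjusted p up to 0.0996).

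In CA3-like against CA1-like nuclei 3 of 47 were higher and 0 lower, against 6.2% of all genes higher and 4.02% lower, with Pcsk5 at 363 against 27.4 CPM (log2 fold change 3.72, edgeR adjusted p = 9.88e-05), Ntf3 at 4.38 against 0.393 CPM and Lpl at 10.1 against 4.42 CPM. The Lpl call was lost without mouse 1 (log2 fold change 0.81), without mouse as a block (edgeR adjusted p = 0.646) and with libraries clustered alone, and the Ntf3 call without the block, with doublets kept and in DESeq2 (adjusted p = 0.252). In OPC-like against oligodendrocyte-like nuclei 9 of 45 were higher and 0 lower, against 9.46% of all genes higher and 7.93% lower (list median 0.08, all genes -0.02), among them Kcnk2 (116 against 11.3 CPM, 3.76) and the endocytic receptor gene Lrp1 (192 against 24.3 CPM, 3.17). In microglia-like against oligodendrocyte-like nuclei 6 of 44 were higher and 2 lower, against 9.23% of all genes higher and 5.89% lower, with Pdgfb (103 against 5.52 CPM, 3.78) and Lrp1 (311 against 24.3 CPM, 3.56) above, and the protease gene Bace1 (23.1 against 53.6 CPM, -1.51) and Snx1 (116 against 189 CPM) below; the Snx1 call was lost with RLE size factors and without composition scaling.

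Across the mean log2(CPM + 1) of the 16 classes, the genes most like Sorcs3 among 11250 were Scn3b (Pearson r = 0.811), Kcnt2 (0.788) and Zfp512b (0.778), and those most like Sorl1 were Pisd (0.876), Grhl1 (0.833) and Adcy9 (0.811). Genes like Sorcs2 included 3110039M20Rik (0.809) and Dlg5 (0.803), Sort1 was most like Rasal1 (0.789), Tecpr2 (0.778) and Cog5 (0.770), and Sorcs1 most like Cavin4 (0.684), Tmeff1 (0.679) and G2e3 (0.662). These points share libraries and depth and are a description. Between members, r was 0.636 for Sort1 with Sorl1 and 0.531 for Sorcs1 with Sorcs3.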

How the data were processed

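Nuclear RNA of 3 hippocampi was counted as raw UMI counts per gene and nucleus. Per the file headers and the submitters' processing notes, the deposited counts came from Cell Ranger 7.0.0 (mice 1 and 2) and 7.1.0 (mouse 3) on mm10. The sources used here do not say if intronic reads entered the counts. The members and gene lists were chosen with earlier results of these data known.

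Nuclei with under 500 genes (242, 703 and 1 of mice 1, 2 and 3) or over 5% mitochondrial counts (0) were dropped, as were 731, 1385 and 257 Scrublet doublets. In mouse 2 the automatic threshold called 0, so a threshold at the expected rate was set after that was seen. Nuclei were clustered with scanpy 1.11.5 (3000 variable genes without members or partners, 30 components, 20 neighbours, Leiden resolution 3, chosen after clusters of a lower resolution were seen) and named from markers; naming rules were adjusted after clusters were seen. Of kept nuclei, 308, 2548 and 24 stayed unnamed. Levels are CPM of counts summed per class and mouse, for classes of at least 20 nuclei. Tests used edgeR 4.0.16 (TMM, filterByExpr, quasi-likelihood) with mouse as a block, because both sums come from the same animal; same-mouse deviations correlated at 0.0639 to 0.756. Replicates are mice; the labels do not say how they are related. DESeq2 1.42.0 and the other alternatives are given in the closing section. Named partner genes were up to 3 called per direction and comparison with the largest fold change; named similar genes were the 3 of highest correlation. Some genes that this rule names are not reported here. Intervals cover counting error only.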

Additional observations from a re-analysis of the deposited data

How the results depend on the processing

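Of 690 fold changes recomputed for members and named partner genes, 596 kept their direction and side of the threshold. The call was lost for 79 and gained for 5, and 10 turned sign. Of 720 mean levels 16 moved by more than the SD over mice. Leaving out 1 of 3 mice cannot move a mean that far, so the 80 levels recomputed without each mouse could not count as moved. Leaving out the main CA1-like cluster of mouse 3 changed the levels of that class only. Sign turned for Sort1 without composition scaling in neuron-like over glia-like (-0.13) and microglia-like over oligodendrocyte-like (0.021), with libraries clustered alone in CA3-like over CA1-like (-0.017), and for Sorcs2 in microglia-like over oligodendrocyte-like with thinned nuclei (-0.11) and libraries clustered alone (-0.73). Leaving out 1 mouse at a time gave ranges that cross 0 for Sorcs1 in neuron-like over glia-like (-1.02 to 0.094, positive without mouse 1) and inhibitory-like over glutamatergic-like (-0.75 to 0.041, positive without mouse 3), and for Sort1 in granule-like over CA pyramidal-like (-0.41 to 0.014, positive without mouse 3) and CA3-like over CA1-like (-0.039 to 0.26, negative without mouse 1 or mouse 2). None of these was called; the cause was not tested.

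Leaving out 1 mouse at a time left between 0 and 6478 genes, 0 and 1 members and 0 and 17 partner genes called in neuron-like over glia-like (4117, 1 and 9 with all mice), 696 to 2791, 0 to 1 and 1 to 9 in inhibitory-like over glutamatergic-like (2423, 1 and 5), 6 to 11 partner genes in granule-like over CA pyramidal-like (10), 1 to 2 members in CA3-like over CA1-like (1), 0 to 3164, 0 to 2 and 0 to 14 in OPC-like over oligodendrocyte-like (2129, 1 and 9), and 0 to 3850, 0 to 1 and 0 to 12 in microglia-like over oligodendrocyte-like (2037, 1 and 8). Where 0 genes were called by edgeR, mice 2 and 3 or 1 and 2 remained, and between 2484 and 5056 genes had an unadjusted p under 0.05.

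Without mouse as a block (the pairing of sums from 1 animal), calls fell to 0 members in neuron-like over glia-like, 1223 genes and 2 partner genes in inhibitory-like over glutamatergic-like, 1564 and 3 in granule-like over CA pyramidal-like, 415, 1 partner gene and 0 members in CA3-like over CA1-like, and 0 members in OPC-like over oligodendrocyte-like. With nuclei thinned to 1000 UMIs, in the same order of the 6 comparisons, 1996, 929, 1053, 391, 1142 and 1325 genes were called, with 0 members in neuron-like over glia-like and 5, 1 and 5 partner genes in granule-like over CA pyramidal-like, CA3-like over CA1-like and microglia-like over oligodendrocyte-like. DESeq2 called 15 and 8 partner genes in the first 2 comparisons and 2 members in OPC-like over oligodendrocyte-like. With no filter on low counts 5 partner genes (CA3-like over CA1-like), 2 members (OPC-like over oligodendrocyte-like) and 3141 genes (microglia-like over oligodendrocyte-like) were called. In neuron-like over glia-like, 0 members were called with doublets kept, without composition scaling or without the main CA1-like cluster of mouse 3. Leaving out that cluster also gave 6 partner genes in granule-like over CA pyramidal-like.

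Alternatives chosen after seeing the data left out mouse 2's own clusters and scaling, and the cluster named above. Without mouse 2's own clusters, 6344 genes and 16 partner genes were called in neuron-like over glia-like, 8 partner genes in inhibitory-like over glutamatergic-like, 2 members in OPC-like over oligodendrocyte-like, and 3811 genes and 13 partner genes in microglia-like over oligodendrocyte-like. Sorcs3 in granule-like nuclei stood at 15.7 times mouse 1 and 6.18 times mouse 2 in mouse 3 with thinned nuclei, at 15.5 and 6.02 with libraries clustered alone, and at 5.34 times mouse 2 without mouse 2's own clusters. Depth limited mouse 2 most, at a median of 1711 UMIs per barcode.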
